A study of Mus musculus with 6 samples.

Results

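Fibroblast growth factor (FGF) genes with known roles in skeletal tissue were followed in stromal cells of mouse bone with and without the transcriptional repressor Zeb1. The group held 8 genes of the 54532 in the deposited table, taken by gene name: Fgf1, Fgf2, Fgf7, Fgf9, Fgf10, Fgf13, Fgf18 and Fgf23. All 8 were found once each. RNA came from mesenchymal stromal cells of the Prx1 lineage, grown from collagenase-digested chips of compact bone of femur and tibia and sorted for the fluorescent reporter, untreated. Both genotypes carried the ROSA-YFP reporter and Prx1-Cre, a recombinase driven in limb mesenchyme; WT mice were Zeb1wt/wt, and Zeb1Prx1 mice were Zeb1fl/fl, so that Zeb1 is lost only where the Prx1 promoter has driven Cre. Each genotype had 3 libraries, and the labels give no age and do not say whether replicates were separate cultures or separate mice. The p-values therefore reflect the spread among these 6 samples alone, and that spread may be technical.

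FGFs are small signalling proteins. The secreted ones bind heparan sulfate on cell surfaces and activate FGF receptor tyrosine kinases, which drive the RAS-ERK cascade, and that cascade induces its own inhibitors. In the skeleton, FGF signalling sets the pace of chondrocyte proliferation in the growth plate and of osteoblast differentiation, and Fgfr3 is the receptor best known for restraining cartilage growth. The genes followed here divide by role. Fgf7 and Fgf10 are mesenchymal ligands of the epithelial splice form of Fgfr2. Fgf1 and Fgf2 are broadly acting ligands without a classical signal peptide, Fgf9 and Fgf18 are ligands of the mesenchymal receptor forms in cartilage and bone, and Fgf23 is the phosphate-regulating hormone of osteocytes, which needs Klotho as a co-receptor. Fgf13 belongs to the intracellular FGF homologous factors, which bind voltage-gated sodium channels and are not secreted ligands, although it shares the family name.

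Zeb1 binds E-boxes, short DNA motifs of the form CANNTG, and prefers CACCTG. The upstream sequences of Fgf7 and Fgf10 are printed because these genes encode ligands of the same receptor form, and the genotypes did not overlap in Fgf7 but did in Fgf10. They cover the 250 bases before the RefSeq start site in GRCm38.p6, the assembly of mm10, read 5′ to 3′ on the plus strand, with each CANNTG match in capitals. Fgf7 lies at chr2:126034408-126034657 and Fgf10 at chr13:118714449-118714698, inside the deposited span of the gene.
Fgf7: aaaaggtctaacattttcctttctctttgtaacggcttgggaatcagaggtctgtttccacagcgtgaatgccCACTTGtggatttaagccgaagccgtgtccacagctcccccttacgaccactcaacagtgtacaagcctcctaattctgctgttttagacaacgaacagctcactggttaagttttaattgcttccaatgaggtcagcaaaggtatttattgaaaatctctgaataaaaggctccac
Fgf10: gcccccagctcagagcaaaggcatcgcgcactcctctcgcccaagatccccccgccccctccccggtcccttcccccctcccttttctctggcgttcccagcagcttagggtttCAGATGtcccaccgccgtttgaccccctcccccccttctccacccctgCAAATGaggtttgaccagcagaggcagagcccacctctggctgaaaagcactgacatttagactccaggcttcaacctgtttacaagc
The Fgf7 window held 1 match, CACTTG, at 177 bases before the start site. The Fgf10 window held 2 matches, CAGATG at 136 and CAAATG at 88 bases before the start site. CACCTG was searched on both strands (as CACCTG or CAGGTG) and was in 0 of the 10 windows listed for 7 of the 8 genes; Fgf1 was not searched. Of all 32851 RefSeq windows of this length, 17.2% held it, and 66.2% held a CANNTG, which includes CACCTG. A match or its absence describes these letters in these windows and nothing more.

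Values are FPKM, fragments per kilobase of gene scaled to library depth. The libraries held 14724357 to 18354894 assigned fragments. Zeb1 had 6.61, 10.3 and 7.12 FPKM in WT replicates 1 to 3, against 1.92, 1.59 and 2.84 in Zeb1Prx1, so the genotypes did not overlap in the targeted gene, although it too did not pass over all genes (log2 change -1.53, SE 0.22, limma adjusted p = 0.229). Of the skeletal stromal markers, 13 of 14 had a mean of at least 1 FPKM, and Prrx1, the gene whose promoter drives Cre, had 18.1 to 30.5 FPKM in the 6 libraries. Macrophage markers were also high in every sorted library: all 17 had a mean of at least 1 FPKM, with a summed level of 12407 to 15188 FPKM in WT and 10238 to 21049 in Zeb1Prx1. The 14 skeletal stromal markers summed to less in every library, 2387 to 3434 FPKM in WT and 3084 to 5231 in Zeb1Prx1. In such bulk samples, fewer cells of a type and less RNA per cell cannot be told apart. Zeb1Prx1 replicate 2 stood apart by the highest summed FPKM over all genes (372566, against 278987 to 312038 in the others).

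Fgf7 was the most abundant of the 8 genes in every library and the 1 gene of the 8 whose lowest Zeb1Prx1 library exceeded its highest WT library in deposited FPKM, an order that was lost when the libraries were scaled to equal FPKM sums. It was followed at a distance by Fgf2 and Fgf10, then by Fgf13, and Fgf18, Fgf1, Fgf9 and Fgf23 were at the edge of detection. None of the 4 genes that could be tested passed over all genes. By mean over the 6 libraries, the levels were 46.2 FPKM for Fgf7, 4.15 for Fgf2, 3.15 for Fgf10, 1.03 for Fgf13, 0.566 for Fgf18, 0.119 for Fgf1, 0.0604 for Fgf9 and 0.0420 for Fgf23. The range of Fgf7 did not overlap that of Fgf2, while each other pair of neighbours in this order had overlapping ranges. Fgf2 was above Fgf10 in 5 of 6 libraries, Fgf10 above Fgf13 in 5, Fgf13 above Fgf18 in 4, Fgf18 above Fgf1 in 6, Fgf1 above Fgf9 in 5 and Fgf9 above Fgf23 in 4.

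**Figure D1:**
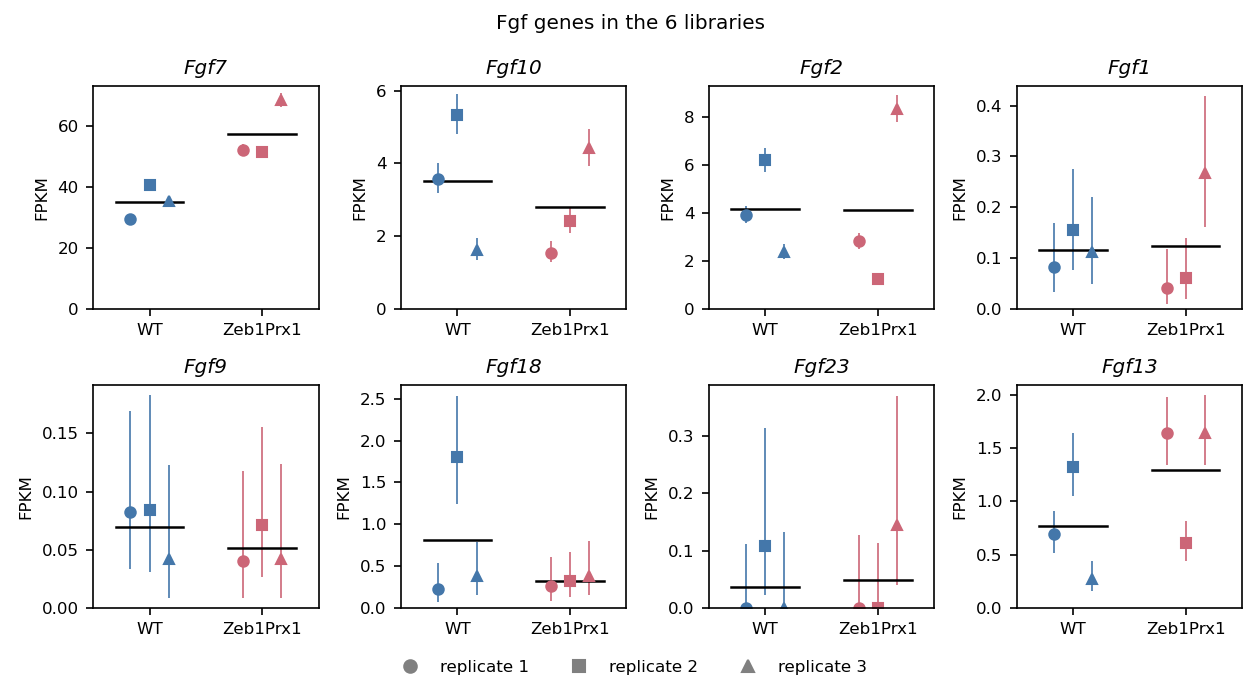
FPKM of each Fgf gene (vertical axes, linear, each from 0) in the WT and Zeb1Prx1 libraries; symbols are replicates, vertical lines are exact 95% Poisson intervals for counting error only, and black bars are genotype means. Zeb1Prx1 libraries of Fgf7 lie at 51.5 to 68.5 FPKM, above the WT libraries at 29.5 to 40.4, and the other 7 genes overlap between genotypes.

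The fit across all genes used limma on log2(FPKM + 1), for genes with at least 1 FPKM in at least 3 of the 6 libraries, with Benjamini-Hochberg adjustment and a threshold of 0.05. Of the 8 Fgf genes, 4 reached this filter (Fgf2, Fgf7, Fgf10 and Fgf13), among 12534 genes in all. The test called 0 of them and 0 of all genes, a background of 0%. Without adjustment, 1 of the 4 Fgf genes (Fgf7, higher) had a limma p under 0.05, beside 1897 of all tested genes, or 15.1% (8.15% higher and 6.98% lower), and 1931 by voom on the recovered fragments. The 1897 were 1022 higher and 875 lower, and scaling the libraries to 1 common FPKM sum turned this into 614 higher and 1270 lower, with the all-gene median at -0.12 in place of 0.02. In deposited FPKM, genotypes did not overlap for 1 of the 4 Fgf genes, in the higher direction, beside 24.4% of all tested genes in either direction and 12.6% in the higher one. At equal FPKM sums this was 0 of the 4, beside 7.98% of all tested genes higher and 16.2% lower. Fgf13 reached the filter in 3 libraries only, WT replicate 2 and Zeb1Prx1 replicates 1 and 3.

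Fgf7, also called keratinocyte growth factor (ENSMUSG00000027208, mm10 chromosome 2, 126034658 to 126091185, plus strand), had 29.5, 40.4 and 35.3 FPKM in WT replicates 1 to 3, against 52.0, 51.5 and 68.5 in Zeb1Prx1, from 1755 to 3398 fragments per library. The lowest Zeb1Prx1 library was above the highest WT library. Scaled to equal FPKM sums, Zeb1Prx1 replicate 2 was at 42.0 and WT replicate 2 at 42.3, so the genotypes overlapped by a narrow margin. The means were 35.1 ± 5.44 and 57.3 ± 9.67 FPKM (SD, n = 3 each), 1.64-fold, and the log2 change was 0.69 (SE 0.19, 95% interval 0.24 to 1.14). This did not pass over all genes (limma adjusted p = 0.273, unadjusted p = 0.00847), and its p ranked 381 among the 12534. Adjusted p lay between 0.0497 and 0.788 over the alternatives, and only library weights, which give each library its own precision, put it past the threshold (log2 change 0.83, limma adjusted p = 0.0497). The span of Fgf7 overlaps that of Fam227b on the opposite strand, which shares 0 exonic bases with it and had 7 fragments in all 6 libraries together.

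Some marker lists of other cells also differed between the genotypes. The mean log2(FPKM + 1) of the macrophage list was 7.0, 7.03 and 7.10 in WT replicates 1 to 3, against 6.65, 6.89 and 6.39 in Zeb1Prx1, lower in each mutant library. Of its 17 genes, 3 had a higher mean FPKM in Zeb1Prx1. In Zeb1Prx1 replicate 2, Lyz2 was at 16368 FPKM, against 8118 to 10490 in WT, and the list's summed FPKM was the highest of all libraries (21049). With the mean log2(FPKM + 1) of this list as a covariate the log2 change of Fgf7 was 0.40 (SE 0.30, limma adjusted p = 0.470). The mean of the skeletal stromal list, 4.81, 5.46 and 5.43 in WT, against 5.21, 4.97 and 5.79 in Zeb1Prx1, overlapped between the genotypes, and with it as a covariate the log2 change was 0.64 (SE 0.14, limma adjusted p = 0.205). The mean of the chondrocyte list was higher in each mutant library (2.37, 1.51 and 4.64) than in WT (0.63, 1.10 and 0.96). So was that of the osteoblast and osteocyte list (3.6, 3.26 and 2.82 against 2.73, 2.56 and 2.38). Of its 13 genes, 10 had a higher mean FPKM in Zeb1Prx1. In Zeb1Prx1 replicate 3, however, Alpl (7.92 FPKM) and Runx2 (3.08) were below every WT library (12.7 to 26.2 and 3.88 to 4.25). The mean of the adipocyte list was lower in each mutant library (1.73, 1.67 and 1.53 against 1.82, 1.81 and 1.82). Of its 8 genes, however, 4 had a mean of at least 1 FPKM and 2 had a higher mean FPKM in Zeb1Prx1. Adipoq, Plin1, Cidec and Lep were at 0 to 0.141 FPKM in the 6 libraries. The epithelial list, which marks the cells that usually carry the receptor form for Fgf7, had 2 of 10 genes at a mean of at least 1 FPKM, and its mean was also higher in each mutant library (0.70, 0.69 and 0.99 against 0.50, 0.083 and 0.11). Epcam was at 0 in WT and at 0.190 to 0.353 FPKM in Zeb1Prx1, and Krt8 was at 0 in WT and at 0.652 to 15.2. Krt19 was highest in WT replicate 1 (18.7 FPKM) and lowest in Zeb1Prx1 replicate 3 (0.353). The macrophage list did not overlap between the genotypes, so a fit with it as a covariate cannot tell the list apart from genotype. The same limit holds for the macrophage covariate values of other genes and lists below. What part these cells have in the Fgf7 values was not tested.

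Fgf7 made up most of the FPKM of the 8 genes. Their sum was 38.1, 55.4 and 40.1 FPKM in WT, against 58.3, 56.2 and 83.7 in Zeb1Prx1, where the lowest mutant library was just above the highest WT library. At equal FPKM sums these 2 libraries, Zeb1Prx1 replicate 2 and WT replicate 2, had 45.8 and 58.0, so the order was reversed and the genotypes overlapped. Without Fgf7 the sum was 8.58, 15 and 4.82 in WT, against 6.33, 4.72 and 15.2 in Zeb1Prx1, which overlapped. The share of Fgf7 in the sum was 72.9% to 88.0% in WT and 81.8% to 91.6% in Zeb1Prx1, also overlapping. Over all 22 Fgf genes in the table, Fgf7 still held 68.7% to 78.2% in WT and 78.1% to 86.2% in Zeb1Prx1.

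Fgf10, the other ligand of the epithelial Fgfr2 form and the limb bud's mesenchymal FGF (ENSMUSG00000021732, chromosome 13, 118669791 to 118792115, plus strand), did not share the order of Fgf7. It had 3.57, 5.33 and 1.63 FPKM in WT, against 1.54, 2.41 and 4.41 in Zeb1Prx1, from 114 to 377 fragments. Both the highest and the third-highest library were WT, and the genotypes overlapped. The means were 3.51 ± 1.85 and 2.79 ± 1.47 FPKM (n = 3 each), and the log2 change was -0.23 (SE 0.39, 95% interval -1.16 to 0.69, limma adjusted p = 0.775). Leaving out WT replicate 2 gave 0.057, and leaving out Zeb1Prx1 replicate 1 gave 0.020. The antisense gene Gm16263 shares 123 exonic bases with Fgf10 and had 17 fragments in all libraries together. The ratio of Fgf7 to Fgf10 was 8.26, 7.58 and 21.7 in WT, against 33.7, 21.4 and 15.5 in Zeb1Prx1, overlapping as well.

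Fgf2, or basic FGF, a growth factor of cultured stromal cells and osteoprogenitors (ENSMUSG00000037225, chromosome 3, 37348346 to 37410108, plus strand), was the most variable of the tested genes relative to its mean. It had 3.92, 6.19 and 2.38 FPKM in WT, against 2.81, 1.24 and 8.33 in Zeb1Prx1, from 152 to 863 fragments. The highest and the lowest library were both Zeb1Prx1, so the mutant libraries enclosed the WT libraries. The means were nearly equal, 4.17 ± 1.92 and 4.13 ± 3.72 FPKM (n = 3 each), with a log2 change of -0.20 (SE 0.53, 95% interval -1.45 to 1.05, limma adjusted p = 0.863). Its sign turned without WT replicate 2 (0.077), without Zeb1Prx1 replicate 2 (0.27) and with library weights (0.60), and with the macrophage covariate the change was -1.90 (limma adjusted p = 0.288). Nudt6, on the opposite strand, shares 640 of the 6782 exonic bases of Fgf2 and had 0.728 to 1.86 FPKM; no source used here says whether counting used strand, so fragments from the shared bases cannot be assigned to either gene.

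**Figure D2:**
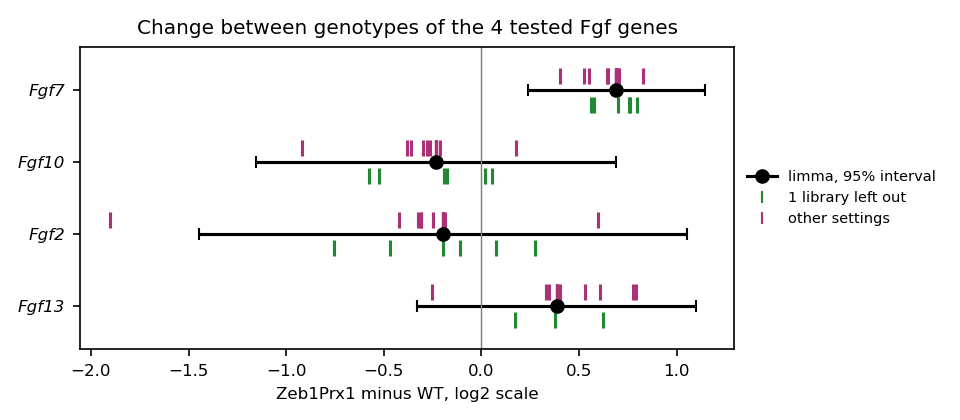
Change between genotypes (horizontal axis, Zeb1Prx1 minus WT on the log2 scale) of the 4 Fgf genes that passed the filter; points and bars are limma estimates with 95% intervals, green ticks are fits without 1 library and purple ticks the other settings that test all 6 libraries. The interval of Fgf7, 0.24 to 1.14, is the 1 that does not include 0, before adjustment over all genes.

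Fgf13, the intracellular homologous factor (ENSMUSG00000031137, chromosome X, 59062145 to 59568071, minus strand), had 0.693, 1.33 and 0.275 FPKM in WT, against 1.64, 0.607 and 1.65 in Zeb1Prx1, from 17 to 106 fragments. Zeb1Prx1 replicates 1 and 3 were above every WT library, and replicate 2 was below WT replicates 1 and 2. The means were 0.765 ± 0.529 and 1.30 ± 0.598 FPKM (n = 3 each), with a log2 change of 0.39 (SE 0.30, 95% interval -0.33 to 1.10, limma adjusted p = 0.525). On this scale the change of so low a gene is understated: voom on the recovered fragments gave 0.79. With the macrophage covariate it was -0.25 (limma adjusted p = 0.757). Fgf13 is X-linked. Xist, the RNA expressed from an inactive X, had 26.8, 40.4 and 32.9 FPKM in WT, against 1.47, 0.00309 and 12.6 in Zeb1Prx1, without overlap. What part this difference has in the values of Fgf13, or in any other contrast between the genotypes reported here, was not tested.

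The ligands best known from cartilage and bone were scarce. Fgf18, which acts on chondrocytes and osteoblasts through Fgfr3 and related receptors (ENSMUSG00000057967, chromosome 11, 33117430 to 33147400, minus strand), had 0.230, 1.81 and 0.384 FPKM in WT, against 0.262, 0.327 and 0.386 in Zeb1Prx1. WT replicate 2 alone held 33 fragments, against 5 to 7 in each of the other 5 libraries. The WT mean of 0.807 ± 0.870 FPKM therefore rests on that library and was 0.307 without it, close to the Zeb1Prx1 mean of 0.325 ± 0.0620 (n = 3 each). Its exact 95% Poisson interval, 1.24 to 2.54 FPKM, lay above the intervals of the other libraries, whose highest upper bound was 0.796. An exact two-sided permutation test of log2(FPKM + 1) in the 6 libraries gave p = 0.7.

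Fgf9, a ligand of perichondrium and developing joints (ENSMUSG00000021974, chromosome 14, 58070547 to 58112720, plus strand), had 0.0823, 0.0839 and 0.0420 FPKM in WT, against 0.0402, 0.0716 and 0.0423 in Zeb1Prx1. These values stand for 3 to 7 fragments per library, and the intervals of all 6 libraries overlapped. Fgf1, acidic FGF, which can bind every FGF receptor (ENSMUSG00000036585, chromosome 18, minus strand), had 0.0823, 0.154 and 0.112 FPKM in WT, against 0.0402, 0.0597 and 0.268 in Zeb1Prx1. Zeb1Prx1 replicate 3 was highest with 19 fragments and replicate 1 lowest with 3. Exact two-sided permutation tests gave p = 0.3 for Fgf9 and p = 1.0 for Fgf1. With 3 libraries against 3, an exact permutation test cannot go below p = 0.1.

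Fgf23, the phosphate hormone (ENSMUSG00000000182, chromosome 6, 127072902 to 127081408, plus strand), had 0.108 FPKM in WT replicate 2 and 0.144 in Zeb1Prx1 replicate 3, from 3 and 4 fragments. The other 4 libraries had 0 fragments, which at a limit of 3 fragments allows up to 0.0904 to 0.108 FPKM. A difference between genotypes was not detectable at this depth. Among the osteocyte markers, Mepe and Sost were at 0 in all 6 libraries.

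WT replicate 2 and Zeb1Prx1 replicate 3 held the highest values of most of these genes. For Fgf1, Fgf2, Fgf10, Fgf18 and Fgf23 these 2 libraries took the first and the second rank among the 6. For Fgf18 and Fgf23 that order rests on few fragments: Zeb1Prx1 replicate 3 had 7 for Fgf18, as did WT replicate 3 and Zeb1Prx1 replicate 2, and the ranks of Fgf23 stand for 3 and 4 fragments against 0. Zeb1Prx1 replicate 3 also took rank 1 for Fgf7 and Fgf13, where WT replicate 2 had ranks 4 and 3, and for Fgf9 the pair had ranks 4 and 1. The pair spans the genotypes. Over the 12534 tested genes, the deviations of these 2 libraries from their genotype means had a Pearson r of 0.457, which describes the libraries and is across genes that are not independent. Among the marker lists, the smooth muscle and pericyte list was lowest in the same libraries, with a mean log2(FPKM + 1) of 2.05 in WT replicate 2 and 1.80 in Zeb1Prx1 replicate 3 against 2.5 to 3.49 in the other 4, and the skeletal stromal list was highest in them (5.46 and 5.79 against 4.81 to 5.43). Without both libraries the log2 change of Fgf7 was 0.66 (limma adjusted p = 0.788), that of Fgf2 was -0.48 and that of Fgf10 was -0.24. The part of these markers in the ranks was not tested.

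**Figure D3:**
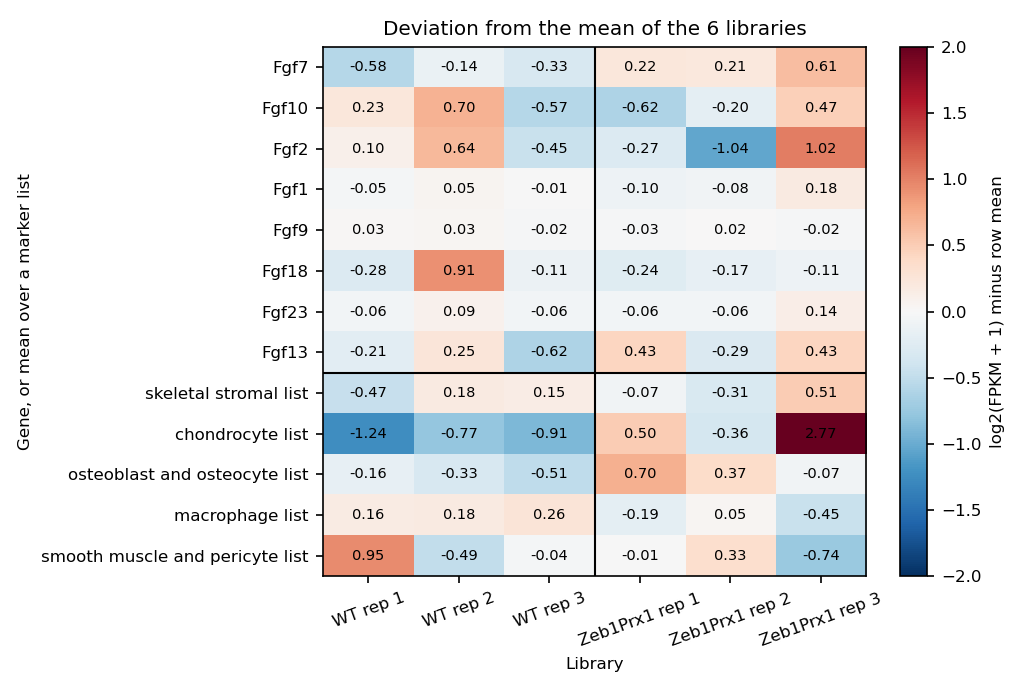
Each cell gives log2(FPKM + 1) in a library minus the mean over the 6 libraries, for the 8 Fgf genes (above the line) and for the mean over marker lists (below it); red is above and blue below the row mean. Fgf2, Fgf10 and Fgf18 are above their row means in WT replicate 2, and Fgf7 is above its row mean in the Zeb1Prx1 libraries alone.

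The genes nearest to each tested Fgf gene were taken by the root mean square difference of log2(FPKM + 1), centred on each gene's mean, over the 6 libraries and 11129 protein-coding genes. For Fgf7, whose own root mean square deviation was 0.392, they were Slc35a2, the Golgi UDP-galactose transporter (0.0579), and Herpud1, a membrane protein of the endoplasmic reticulum (0.0777). Slc35a2 had 8.73, 11.5 and 10.2 FPKM in WT, against 14.1, 14.3 and 19.0 in Zeb1Prx1. For Fgf13 (0.397) they were Stc2, a secreted glycoprotein hormone (0.0867), and the phospholipase gene Plcb1 (0.0918). The neighbours of Fgf10 and Fgf2 were more distant: Maff (0.198) and the glucose transporter gene Slc2a1 (0.224) for Fgf10 (0.501), and Btbd3 (0.235) and the glycolytic regulator Pfkfb3 (0.236) for Fgf2 (0.685). Slc2a1 had 35.5, 48.2 and 28.0 FPKM in WT, against 29.2, 30.9 and 49.0 in Zeb1Prx1, and Pfkfb3 had 8.78, 18.4 and 7.87 in WT, against 12.1, 5.00 and 21.5 in Zeb1Prx1. With 6 libraries and this many genes, near neighbours are a description only.

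Of the 14 other Fgf genes, 1 reached the filter. Fgf11, another intracellular homologous factor, had 2.94 to 4.06 FPKM in WT and 1.94 to 2.92 in Zeb1Prx1, with each mutant library below each WT library by a margin that was small for Zeb1Prx1 replicate 1 and was lost at equal FPKM sums (log2 change -0.40, SE 0.19, limma adjusted p = 0.355). Genotypes did not overlap in the lower direction for 11.8% of all tested genes. Fgf3, Fgf4, Fgf15 and Fgf16 were at 0 in all 6 libraries.

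Of the receptors and co-receptors for these ligands, 4 of 7 were tested and 0 passed. All 4 changes lay above 0 on the log2 scale (median 1.11, against 0.02 over all tested genes). Over all tested genes, 51.9% had a change above 0. Fgfr1, the main receptor of stromal cells, had 22.6, 20.3 and 17.2 FPKM in WT, against 28.9, 19.2 and 36.6 in Zeb1Prx1, and overlapped. Fgfr2 had 2.61, 2.32 and 3.68 in WT and 4.14 to 9.34 in Zeb1Prx1, without overlap in deposited FPKM but with overlap at equal FPKM sums (log2 change 1.06, SE 0.29, limma adjusted p = 0.273). Gene-level values do not separate its epithelial form, which binds Fgf7 and Fgf10, from its mesenchymal form. Fgfr3, which Fgf9 and Fgf18 activate, had 0.519 to 0.536 FPKM in WT and 2.82, 2.44 and 5.69 in Zeb1Prx1 (log2 change 1.54, limma adjusted p = 0.258). It reached the filter through the Zeb1Prx1 libraries alone, and with no filter the median over 6 receptor genes was 0.75, with 5 above 0. Library weights called Fgfr2 and Fgfr3, in a setting that called 268 genes higher and 179 lower among all 12534 tested. Fgfrl1, a receptor without a kinase domain, had 6.44, 11.0 and 12.2 against 15.7, 11.8 and 59.6 and overlapped. With the macrophage covariate, 2 of the 4 log2 changes were below 0 and the median was 0.07. When any 1 of the Zeb1Prx1 libraries was left out, Fgfr3 fell under the filter. The median of the 3 genes still tested was 0.87 without replicate 1, 1.38 without replicate 2 and 0.47 without replicate 3. Kl, the Klotho gene that Fgf23 needs, was at 0 in every library, Klb, the related co-receptor gene, was at 0 to 0.084 FPKM, and Fgfr4 at 0 to 0.166.

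**Figure D4:**
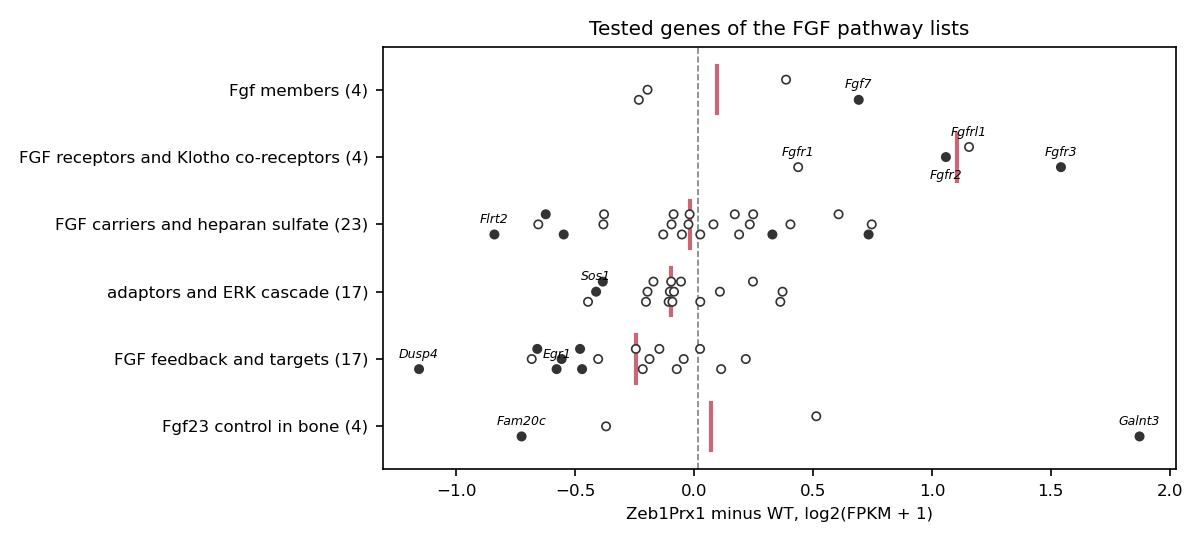
Log2 change (horizontal axis, Zeb1Prx1 minus WT on log2(FPKM + 1)) of each tested gene in the FGF pathway lists, with the number tested in brackets; filled points are genes whose genotypes did not overlap in deposited FPKM, red bars list medians and the dashed line the median of all tested genes, 0.02. The 4 receptor genes lie above 0, and 14 of 17 feedback and target genes lie below 0.

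The feedback list holds genes that FGF signalling induces, among them its inhibitors. Of 17 tested feedback and target genes, 14 had a log2 change below 0, with a median of -0.24, and 0 passed. Over all tested genes 48.1% were below 0. Genotypes did not overlap, in the lower direction, for 6 of the 17, beside 11.8% of all tested genes. Egr1, an early target of ERK, had 5.00, 4.87 and 4.94 FPKM in WT, against 2.54, 3.14 and 3.29 in Zeb1Prx1 (log2 change -0.58, SE 0.14, limma adjusted p = 0.264). Spred1 and Spred2, inhibitors of the RAS-ERK cascade, had 29.9 ± 3.48 against 21.3 ± 2.67 and 11.1 ± 1.10 against 6.90 ± 2.44 FPKM. Dusp4, an ERK phosphatase, had 20.5, 6.72 and 6.96 in WT, high in replicate 1, against 5.36, 4.35 and 2.51. The list's median depended on single libraries: it was -0.11 without WT replicate 1 (13 of 17 below 0) and -0.13 without Zeb1Prx1 replicate 2 (12 of 17), but -0.42 without WT replicate 2 (15 of 16), -0.40 without WT replicate 3 and -0.38 without Zeb1Prx1 replicate 3 (14 of 16 each). It was -0.50 with the macrophage covariate, beside an all-gene median of 0.03, and -0.40 at equal FPKM sums, beside an all-gene median of -0.12. At equal FPKM sums the count lower without overlap was 6 of 17, beside 16.2% of all tested genes.

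Carriers and enzymes of heparan sulfate, on which FGF ligands are held, were divided, with 11 of 23 tested genes above 0, a median of -0.02 and 0 called. Without Zeb1Prx1 replicate 2, 16 of 23 were above 0 (median 0.19), with library weights 15 of 23 (0.08), and with the macrophage covariate 7 of 23 (-0.26). Sdc1, the cell-surface proteoglycan syndecan-1, had 39.4 ± 9.43 FPKM in WT and 65.6 ± 11.6 in Zeb1Prx1, without overlap in deposited FPKM and with overlap at equal FPKM sums. Flrt2, a transmembrane partner of FGF receptors, had 12.1 ± 1.10 and 6.51 ± 2.28, and Ndst2 and Extl3, enzymes of heparan sulfate synthesis, had 17.6 ± 0.254 against 11.8 ± 1.82 and 31.9 ± 4.47 against 20.7 ± 5.36. These 4 had limma adjusted p between 0.273 and 0.298. Among adaptors and ERK cascade genes, 12 of 17 were below 0 with a median of -0.10 and 0 called. Leaving out 1 library gave medians of -0.15 to -0.06, with 10 to 13 of 17 below 0. The exchange factor gene Sos1 had 6.02 ± 0.479 against 4.36 ± 1.18 FPKM and Sos2 had 6.53 ± 0.715 against 4.85 ± 1.23, both without overlap (limma adjusted p = 0.354 and 0.374). For Sos1 the margin was narrow, 5.45 in Zeb1Prx1 replicate 1 against 5.51 in WT replicate 1. Sos1 and Sos2 were the 2 of 17 that were lower without overlap, a share at the 11.8% of all tested genes, and at equal FPKM sums the count was 6 of 17, beside 16.2%. Map2k2, a kinase gene of that cascade, had 19.5 ± 1.94 against 25.9 ± 6.92 FPKM and overlapped between genotypes.

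Of the genes that control Fgf23 in bone, 4 of the 7 found in the table reached the filter and 0 passed. Galnt3, the glycosyltransferase that protects Fgf23 from cleavage, had 2.96, 2.41 and 0.849 FPKM in WT, against 12.0, 6.05 and 12.4 in Zeb1Prx1, each mutant library above each WT library (log2 change 1.87, SE 0.36, limma adjusted p = 0.258). It was called with library weights only, a setting that called 268 genes higher and 179 lower among all 12534 tested. Fam20c, the kinase that marks Fgf23 for cleavage, had 17.1, 18.8 and 11.7 in WT, against 11.5, 9.56 and 6.67 in Zeb1Prx1, just without overlap (log2 change -0.73, SE 0.25, limma adjusted p = 0.291). The protease gene Furin (24.0 ± 3.02 against 18.8 ± 5.58) and Enpp1, which makes the mineralization inhibitor pyrophosphate (4.72 ± 3.64 against 8.25 ± 7.85), overlapped. Phex and Dmp1, osteocyte genes whose loss raises Fgf23, were at 0.0312 to 0.228 and 0.0198 to 0.428 FPKM.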

How the data were processed

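RNA was sequenced as paired-end reads from 3 WT and 3 Zeb1Prx1 libraries. The authors deposited 1 table of FPKM for 54532 genes, per the file headers, with gene coordinates and lengths, on build mm10 per the submitters' processing notes; the aligner, the counter and any strand setting are not given in the sources. Multiplied by gene length, all 127408 non-zero values were whole numbers of a library's smallest step (relative tolerance 1e-06), which gave fragments per gene and 14724357 to 18354894 per library. Poisson intervals (95%) and limits of 3 fragments cover counting error only.

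The test was limma 3.58.1 (R 4.3.3) with an intensity trend on log2(FPKM + 1), for genes with at least 1 FPKM in at least 3 of 6 libraries. Adjustment was Benjamini-Hochberg over all 12534 tested genes, threshold 0.05. The code was run on simulated data. These gave every gene the same relative spread beyond counting error, so the run does not show how the test performs on these libraries. Low genes change less on the log2(FPKM + 1) scale than in FPKM. Exact permutation tests compared mean log2(FPKM + 1) between genotypes, and these tests and the intervals used scipy 1.17.1. Exons came from GENCODE release M21, and upstream sequences from RefSeq (GRCm38.p6). The sequences were searched for 7 of the 8 genes, without windows on chromosome 18, where Fgf1 lies. The deposited spans of 7 of the 8 genes were the same as in GENCODE; that of Fgf1 differed. Single genes were named by a rule: the 8 Fgf genes, Zeb1, the tested receptors, up to 4 tested genes with the smallest p in each pathway list, 2 nearest genes per tested Fgf gene, and overlapping genes; others (co-receptors, markers, Xist, genes at 0) were named after their values were seen. The genes and lists were chosen with earlier results of these data known. 1 listed symbol, Ankh, was not matched. A further gene that the rule names is not reported here. Alternatives were other pseudocounts, filters, scalings and variance models, a replicate block, voom on fragments, and leaving out libraries; marker-list covariates, overlap at equal FPKM sums, and leaving out 2 libraries together were chosen after seeing the data.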

Additional observations from a re-analysis of the deposited data

How the results depend on the processing

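Fgf7 was above 0 in all 21 fits, with a log2 change of 0.56 to 0.80 when 1 library was left out and 0.40 to 0.83 in the others, and passed only with library weights (0.83), where 1 of the 4 tested Fgf genes, 268 genes higher and 179 lower were called. The cause of that difference was not tested. With the skeletal stromal covariate, 1 gene was called higher (Lum) and 1 lower (Gm22151), both named after their values were seen, and leaving out 1 library gave 0 to 1 gene higher (Omd, without Zeb1Prx1 replicate 2) and 0 lower. The number of genes at an unadjusted p under 0.05 was 1118 to 2821 when 1 library was left out, 580 without both WT replicate 2 and Zeb1Prx1 replicate 3, and 3866 with library weights.

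Fgf2 turned to 0.60 and Fgf10 to 0.18 with library weights, and leaving out 1 library gave -0.75 to 0.27 for Fgf2 (0.077 without WT replicate 2) and -0.58 to 0.057 for Fgf10 (0.020 without Zeb1Prx1 replicate 1), so neither had 1 direction. Fgf13 turned to -0.25 with the macrophage covariate and was under the filter without WT replicate 2, Zeb1Prx1 replicate 1 or Zeb1Prx1 replicate 3. Among untested genes, whose change without the filter was 0.00 for Fgf1, -0.02 for Fgf9 and 0.02 for Fgf23, the values moved for Fgf1 to -0.40 by voom and -0.20 with the macrophage covariate, for Fgf9 to -0.16 at a pseudocount of 0.1 and -0.43 by voom, and for Fgf23 to -0.14 with the macrophage covariate. A mean FPKM of at least 5 left Fgf7 as the 1 Fgf gene tested.

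With the replicate number as a block, Fgf7 had a log2 change of 0.69 (limma adjusted p = 0.443), and the block called 0 genes. No source used here says that same-numbered libraries were paired. Their deviations had r of 0.0289, -0.413 and 0.0798 for numbers 1, 2 and 3. Libraries with different numbers had r of -0.481 to 0.457, so these values cannot decide whether there was a pairing. Depth limits Fgf1, Fgf9, Fgf18 and Fgf23, with 3 to 45 fragments per genotype.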
